A study of Mus musculus with 6 samples.

Results

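A set of 10 genes that act in the uptake and storage of fatty acids was followed in stromal vascular cells of mouse inguinal white adipose tissue (iWAT): Cd36, Lpl, Fabp4, Fabp5, Plin2, Plin3, Acsl1, Dgat1, Dgat2 and Slc27a1. They were chosen by name, and all 10 were found by symbol among the 31053 genes listed with the counts. The cells came from C57BL/6 male mice and had been depleted of CD45+ immune cells by sorting, and adipocytes float away from such cells when the tissue is digested. There were 6 single-cell libraries, 1 for each age and temperature: young (9 weeks) or aged (57 weeks) mice that were kept at 30 °C throughout (TN, thermoneutrality), or spent the last 3 days (3D cold) or 14 days (14D cold) at 6 °C. All groups were first held for 3 weeks at 30 °C. The number of mice behind a library and which of 2 C57BL/6 substrains it came from are not given. The p-values therefore rest on the spread between libraries, which is estimated for a gene in part from other genes. The temperatures stand in for replicates of an age.

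Fat cells and the vessels around them take up fatty acids in steps. Lipoprotein lipase (Lpl) frees fatty acids from circulating lipoproteins at the capillary wall, the scavenger receptor Cd36 and the transport protein Slc27a1 (FATP1) carry them into cells, and Fabp4 and Fabp5 bind them in the cytosol. Acsl1 joins them to coenzyme A, Dgat1 and Dgat2 catalyse the last step of triglyceride synthesis, and Plin2 and Plin3 coat the lipid droplets in which triglyceride is kept. In adipose tissue several of these genes are targets of PPARγ, and Fabp4 and Cd36 are strongly expressed in capillary endothelium as well as in adipocytes.

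The genes lie on 7 chromosomes of the mouse genome (GRCm38). Cd36 (ENSMUSG00000002944) spans chr5:17781690-17888801 on the minus strand, Lpl chr8:68880491-68907448 on the plus strand, Plin2 chr4:86648386-86670060 on the minus strand and Slc27a1 chr8:71568882-71587302 on the plus strand. Fabp4 (chr3:10204088-10208576, minus strand) and Fabp5 (chr3:10012548-10016607, plus strand) both lie on chromosome 3. Plin3 spans chr17:56277476-56292873 and Dgat1 chr15:76502015-76511953, both on the minus strand, as is Dgat2 at chr7:99153658-99182719, and Acsl1 spans chr8:46471037-46536051 on the plus strand. In the GENCODE annotation the 10 genes are protein coding, and of the 10 Acsl1 alone overlaps another gene, Gm45244 on the opposite strand. RefSeq promoter sequences of GRCm38.p6 were at hand for 5 of the 10, Cd36, Plin2, Plin3, Acsl1 and Slc27a1, and Lpl, Fabp4, Fabp5, Dgat1 and Dgat2 had no entry. Of the 3 genes with an entry that passed a test below, Cd36, Plin2 and Slc27a1, the 2 whose windows held the letters AGGTCA are shown. Each window runs from 250 bases before to 50 bases after a transcription start, read 5′ to 3′ on the gene's strand, with capitals where AGGTCA, the short site to which nuclear receptors bind, was found on either strand (here TGACCT, its reverse complement).
Cd36, chr5:17835847-17836146, minus strand: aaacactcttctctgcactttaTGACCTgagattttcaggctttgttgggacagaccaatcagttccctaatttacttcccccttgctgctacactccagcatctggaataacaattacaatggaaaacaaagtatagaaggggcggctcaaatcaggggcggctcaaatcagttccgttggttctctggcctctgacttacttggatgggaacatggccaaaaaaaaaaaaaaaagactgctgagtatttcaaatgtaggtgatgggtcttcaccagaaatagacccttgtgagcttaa
Plin2, chr4:86670010-86670309, minus strand: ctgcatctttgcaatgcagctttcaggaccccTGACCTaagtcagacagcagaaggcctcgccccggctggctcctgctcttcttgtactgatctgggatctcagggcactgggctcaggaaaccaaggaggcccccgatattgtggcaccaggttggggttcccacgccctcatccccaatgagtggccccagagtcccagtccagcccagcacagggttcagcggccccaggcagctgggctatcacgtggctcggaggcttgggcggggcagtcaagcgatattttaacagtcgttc
AGGTCA was present in these windows and in no window of Plin3, Acsl1 or Slc27a1, and 16.3% of all 32851 promoter windows held it. A match of letters is a description and not a binding site.

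The libraries held 52068837 to 88508349 counted transcripts (UMIs, for the molecular tags that tell copies apart). Of 57326 barcodes kept as cells, 21550 were Dpp4+ fibroblasts, 19930 Icam1+ preadipocytes, 4426 Cd142+ fibroblasts, 4016 endothelial cells and 1381 smooth muscle cells and pericytes (SMC/pericytes), each made of clusters that showed 7 to 10 of the 10 markers of that name. The 10 genes took no part in the clustering. The 5 classes had 159 to 4770 cells per library, and 424 immune cells remained after the sort. The aged 14D cold library stood apart, with a median of 2588 UMIs per barcode against 6232 to 8954 in the others, and 3833 of its cells fell in clusters that carry no class name. Any pair of libraries shared 30 to 44 barcodes. Levels are CPM, the UMIs of a gene relative to all UMIs of a class in a library (scaled with TMM factors), and means are given ± SD over 3 libraries of an age or 6 in all.

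Endothelial cells held the highest level of Cd36, Fabp4 and Fabp5, and Icam1+ preadipocytes the highest level of Lpl. The level of Fabp4 in endothelial cells ran from 35066 to 60603 CPM, above SMC/pericytes at 6574 to 24600 CPM and Icam1+ preadipocytes at 765 to 3102 CPM, with no overlap among these 3 classes. Cd36 followed the same order at 2732 to 4698 CPM in endothelial cells, 262 to 1290 CPM in SMC/pericytes and 27.0 to 187 CPM in Icam1+ preadipocytes. A UMI of an endothelial marker gene was found in 69.6% to 82.0% of SMC/pericytes per library, against 6.35% to 16.8% in the fibroblast classes. In SMC/pericytes the summed markers stood at 4.10% to 14.9% of their endothelial level. The highest single marker stood at 23.9% to 37.8%, Cd36 at 8.98% to 30.4% and Fabp4 at 17.5% to 43.2%. The clusters of this class had 15% and 26% of cells with a high doublet score. The part of endothelial RNA in these levels was not tested. Fabp5 stood at 1064 to 2547 CPM in endothelial cells and did not pass 220 CPM in the other 4 classes tested. Lpl stood at 2496 to 3892 CPM in Icam1+ preadipocytes, 728 to 1798 CPM in Cd142+ fibroblasts and 202 to 484 CPM in Dpp4+ fibroblasts, 3 ranges that did not overlap. Plin2 stood at 307 to 598 CPM in Icam1+ preadipocytes, which overlapped with its 278 to 630 CPM in endothelial cells, and at 40.9 to 76.6 CPM in the other 2 fibroblast classes. Plin3, the more widely expressed droplet coat protein, was lowest of the 5 classes in endothelial cells, at 31.5 to 44.1 CPM against 62.8 to 97.8 CPM over the 3 fibroblast classes. Of the 5 classes, Slc27a1 was lowest in Dpp4+ fibroblasts (2.25 to 3.22 CPM) and reached 11.97 to 26.2 CPM in Icam1+ preadipocytes. It was higher in a smaller class, the 458 Schwann-like cells, with 116 UMIs in all. That class was mixed, and 215 of its cells were gated as Schwann cells one by one by markers. Slc27a1 stood there at 27.4 to 35.4 CPM in young and 73.0 to 86.5 CPM in aged libraries, which were not tested for age. Immune cells stood at 9.07 to 45.5 CPM. Acsl1 ran from 24.5 to 64.6 CPM in endothelial cells and SMC/pericytes and from 4.45 to 8.91 CPM in the fibroblast classes. Dgat1 overlapped between classes next to each other in level. Its 21.1 to 26.0 CPM in Dpp4+ fibroblasts still lay above the other 2 fibroblast classes, at 15.6 to 19.1 CPM in Icam1+ preadipocytes and 13.6 to 17.9 CPM in Cd142+ fibroblasts. Dgat2 was at or under 5.13 CPM in fibroblasts and 8.60 to 24.3 CPM in endothelial cells.

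**Figure D1:**
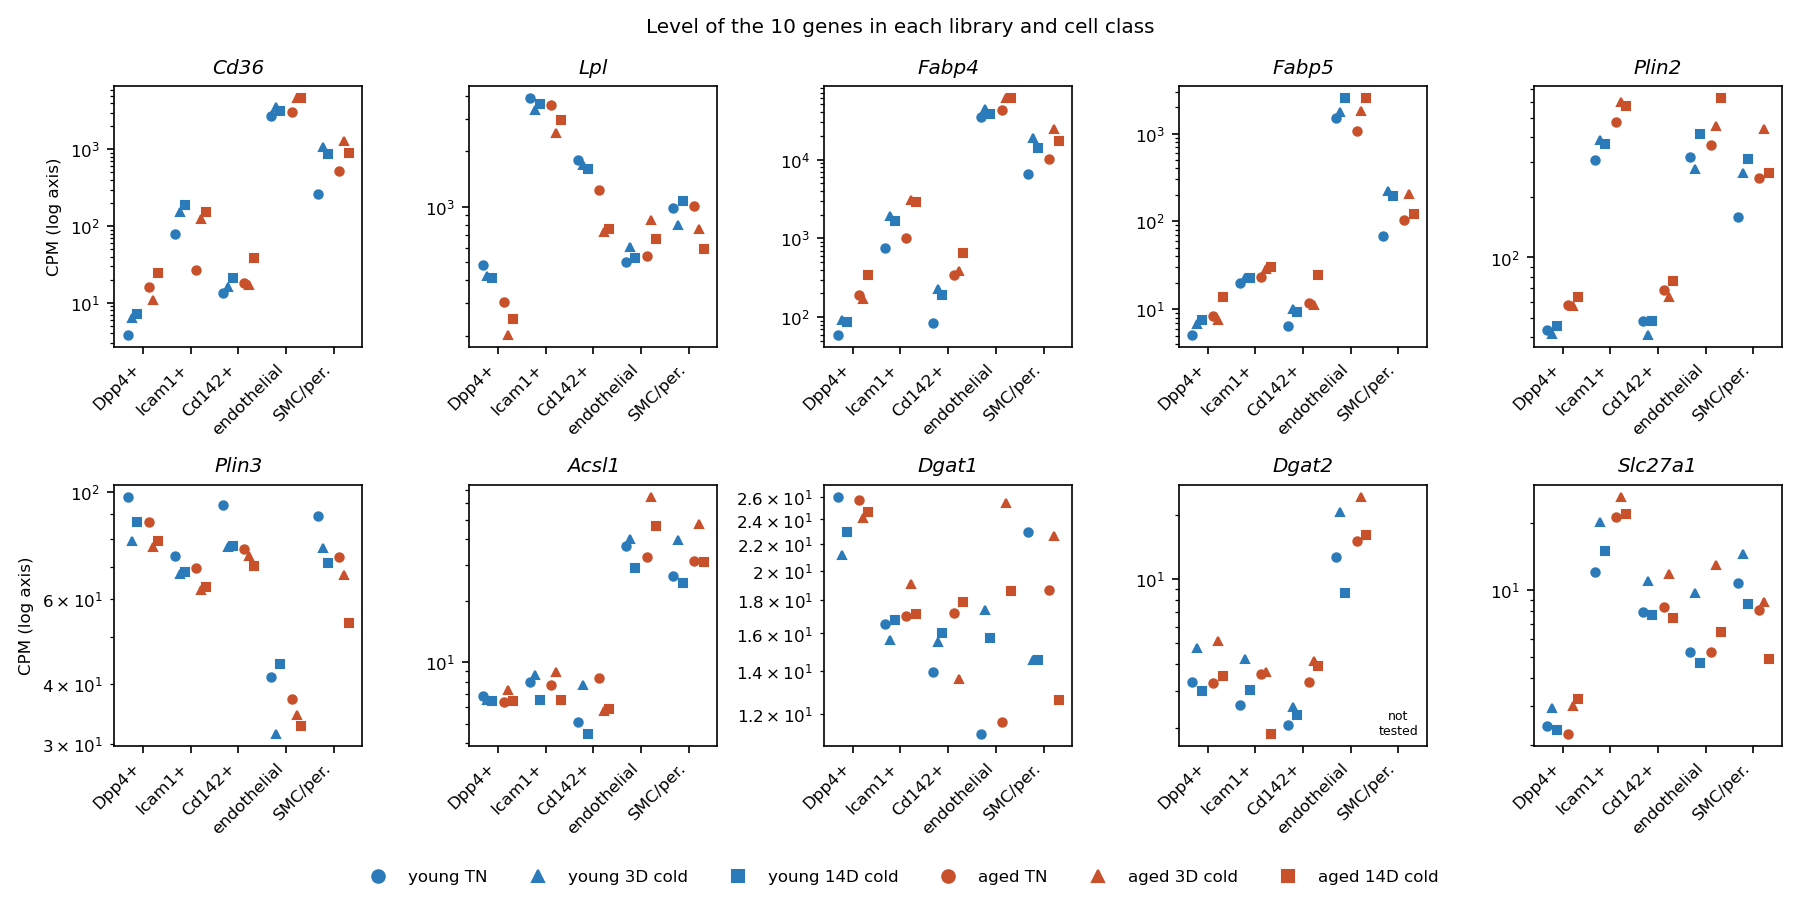
Level of each gene (CPM, log axis, 1 panel per gene) in 5 cell classes, with 1 point per library, blue for young and orange for aged, and shapes for temperature. Fabp4, Cd36 and Fabp5 are highest in endothelial cells and Lpl in Icam1+ preadipocytes. Dgat2 had too few UMIs in SMC/pericytes to be tested.

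Within Icam1+ preadipocytes the genes differed between the 2 clusters that make up the class, with values given as a description. In cluster 3, led by Cxcl14, Lamc3 and Col15a1, Lpl ran from 3186 to 4911 CPM, and in cluster 0, led by Nrep and Tfpi2, from 1917 to 2990 CPM. Plin2 averaged 658 CPM in cluster 3 and 287 CPM in cluster 0, and Fabp4 averaged 2690 and 1229 CPM. The ranges of Plin2 did not overlap, and those of Fabp4 did. Within endothelial cells, cluster 6, led by the capillary gene Gpihbp1, held more Cd36 (3643 to 5388 CPM) than cluster 8, led by Plvap and Lrg1 (1154 to 1777 CPM), and more Fabp5 (1369 to 3972 against 302 to 501 CPM).

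In Dpp4+ fibroblasts, which hold early progenitors, 5 of the 10 genes passed the age test: Cd36, Fabp4, Fabp5 and Plin2 were higher in aged libraries and Lpl was lower. Of all 13035 genes tested in this class, 17.2% passed. Lpl stood at 484, 420 and 412 CPM in the young libraries (TN, 3D cold and 14D cold) and at 306, 202 and 248 CPM in the aged ones. The ages did not overlap, and the log2 fold change was -0.82 (standard error 0.08, adjusted p = 0.00017). Plin2 stood at 43.2, 41.5 and 45.4 CPM in young and 57.6, 57.3 and 63.4 CPM in aged libraries, and the fitted difference was 0.45 log2 units (SE 0.06, adjusted p = 0.00068). Every aged library again lay on one side of every young library. Free RNA can add to such levels. Schwann-like cells stood at 566 to 748 CPM of Lpl in young and 464 to 616 CPM in aged libraries. Each value was above the Dpp4+ level of the same library. This class was mixed: of its 458 cells, 215 were gated as Schwann cells one by one by markers. At resolution 1.0 there was a Schwann cluster of 156 cells and a cluster of 392 cells named lymphatic endothelium. The levels of a mixed class do not measure free RNA. Its part in the lower Lpl of aged Dpp4+ fibroblasts was not tested.

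Fabp4 in Dpp4+ fibroblasts stood at 59.5, 91.5 and 87.2 CPM in young and 189, 171 and 341 CPM in aged libraries (log2 fold change 1.51, standard error 0.16, adjusted p = 0.00032). Cd36 stood at 3.82, 6.40 and 7.20 CPM in young and 16.2, 10.9 and 24.7 CPM in aged libraries, from 137 to 506 UMIs per library, with log2 fold change 1.54 (standard error 0.20, adjusted p = 0.0011). Fabp5 went from 6.43 ± 1.22 CPM in young to 9.86 ± 3.31 CPM in aged libraries (log2 fold change 0.59, standard error 0.14, adjusted p = 0.018). The 3 genes had their highest value in the aged 14D cold library, and the test of Fabp5 no longer passed without that library, the young TN library or the aged TN library, with an adjusted p of up to 0.17 over the alternatives. Without the aged 14D cold library the log2 fold changes were 1.40 for Cd36, 1.28 for Fabp4, 0.44 for Plin2 and -0.86 for Lpl, all past the threshold. Over 15 alternatives that of Cd36 ran from 0.84 to 1.91 and passed in each. In all libraries together, the 1% of Dpp4+ cells with most UMIs of a gene held 44.2% of those of Cd36 and 37.6% of those of Fabp4. For Lpl that share was 8.78% and for Plin2 11.3%. The total UMIs differed, at 1665 for Cd36, 22873 for Fabp4, 61196 for Lpl and 8287 for Plin2. Genes with fewer UMIs had high shares too, at 50.8% for Slc27a1 (449 UMIs) and 42.4% for Dgat2 (642 UMIs). What the 1% of cells add to the age differences was not tested.

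Endothelial RNA moved with these rises in the Dpp4+ class. The sum of 10 endothelial marker genes stood in Dpp4+ fibroblasts at 0.133%, 0.136% and 0.178% of their level in endothelial cells of the same young library and at 0.422%, 0.230% and 0.453% in the aged ones. Of these 10 markers 9 passed the age test as higher. Fabp4 stood at 0.164%, 0.211% and 0.218% of its endothelial level in young and 0.452%, 0.298% and 0.591% in aged libraries. Cd36 stood at 0.135%, 0.182% and 0.213% in young and 0.536%, 0.249% and 0.551% in aged libraries. In Dpp4+ fibroblasts there were 6.40 to 8.59 UMIs of Cd36 for every 100 of Fabp4, and in endothelial cells 7.25 to 8.46. The levels of Fabp4 and Cd36 in Dpp4+ fibroblasts were close to what the endothelial markers show there, and the part of endothelial RNA in their age difference was not tested. Without cells that held any UMI of the 10 markers, a choice made after seeing the data, the log2 fold change was 1.08 for Fabp4 and 1.04 for Cd36, both past the threshold. Adipocyte genes moved with age here as well, with a sum of 5.52, 12.3 and 7.72 CPM in young and 14.6, 22.5 and 20.9 CPM in aged libraries and 4 of 5 tested past the threshold. Without cells that held a UMI of Adipoq, Plin1, Cidec or Car3 the log2 fold change was 1.42 for Fabp4 and 1.46 for Cd36. The log2 fold changes of Lpl and Plin2 without the cells with endothelial UMIs were -0.84 and 0.44, near those of all cells, and Plin2 in Dpp4+ fibroblasts stood at 10.4% to 15.8% and Lpl at 25.2% to 92.6% of their endothelial level.

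**Figure D2:**
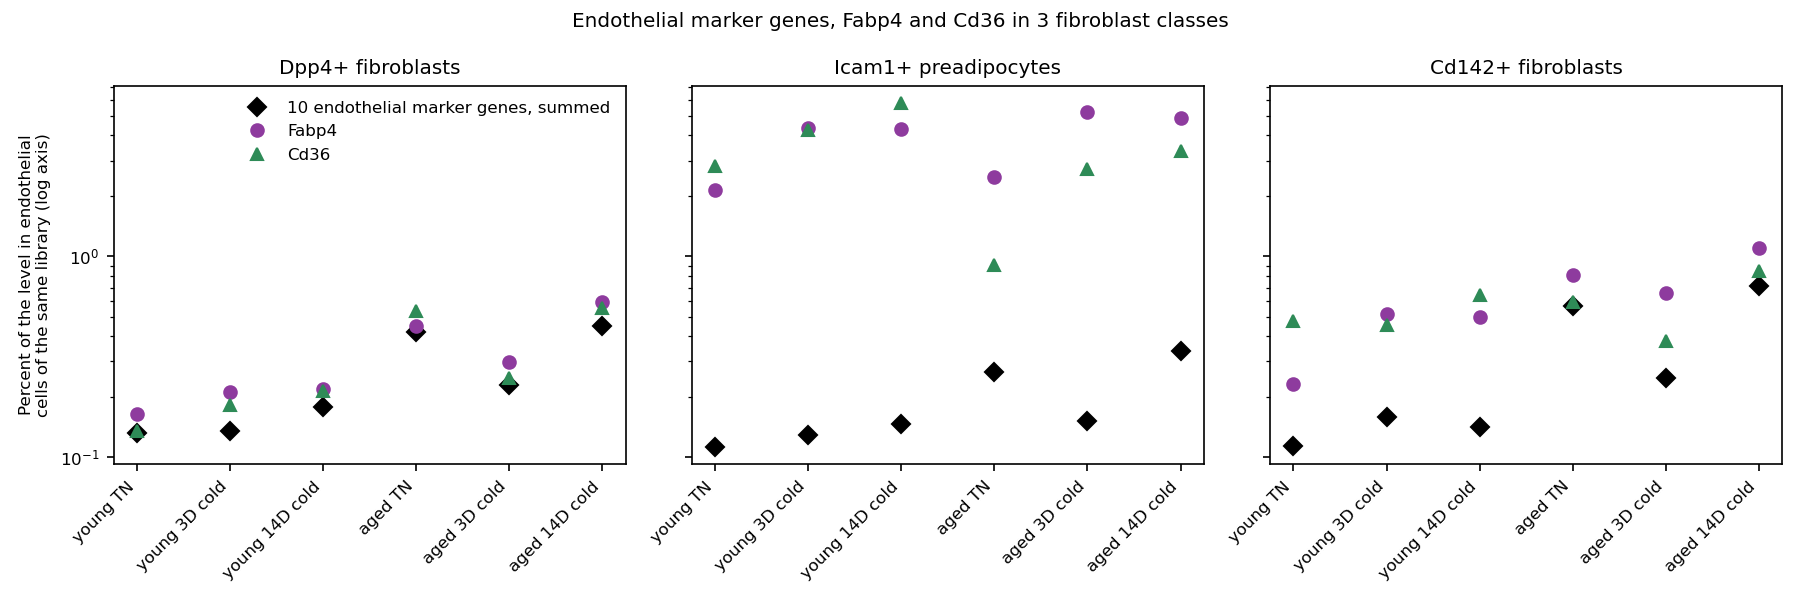
Level of Fabp4, Cd36 and 10 summed endothelial marker genes in 3 fibroblast classes as percent of the level in endothelial cells of the same library (log axis), 1 position per library. In Dpp4+ fibroblasts the 3 measures lie together and are higher in aged libraries, and in Icam1+ preadipocytes Fabp4 and Cd36 lie above the markers in every library.

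The 2 large Dpp4+ clusters did not contribute alike to the ages. Cluster 2 made up 51.2% to 58.5% of the Dpp4+ cells in young libraries and 23.1%, 46.5% and 46.7% in the aged TN, 3D cold and 14D cold libraries. In cluster 1 alone the log2 fold change of Lpl was -0.86 (adjusted p = 6.9e-05), that of Fabp4 1.07 (adjusted p = 8.1e-06) and that of Plin2 0.22 (adjusted p = 0.055). In cluster 2 alone they were -0.46 (adjusted p = 0.058), 2.12 (adjusted p = 0.0023) and 0.82 (adjusted p = 0.00036). Lpl thus passed in cluster 1 and not in cluster 2, and Plin2 in cluster 2 and not in cluster 1. The difference between the clusters was not tested.

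In Icam1+ preadipocytes, the class most committed to the adipocyte lineage, Plin2, Fabp4, Slc27a1 and Fabp5 were higher in aged libraries, 4 of the 10 genes against 13.4% of all genes tested. Plin2 stood at 307, 386 and 370 CPM in young and 476, 598 and 576 CPM in aged libraries. The aged value was higher by 0.63, 0.63 and 0.64 log2 units at TN, 3D cold and 14D cold, and the fitted log2 fold change was 0.63 (standard error 0.06, adjusted p = 0.0011). Slc27a1 stood at 11.97, 20.2 and 14.95 CPM in young and 21.1, 26.2 and 21.8 CPM in aged libraries (log2 fold change 0.57, standard error 0.10, adjusted p = 0.0083). Neither gene overlapped between the ages. The call of Slc27a1 was lost with cells thinned to 2000 UMIs (log2 fold change 0.29, adjusted p = 0.29) and without the temperature term (0.55, adjusted p = 0.18).

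Fabp4 in Icam1+ preadipocytes overlapped between the ages and also differed between temperatures, and at each temperature the aged library was higher: 1023 against 765 CPM at TN, 3102 against 1920 CPM at 3D cold and 2864 against 1641 CPM at 14D cold. The log2 fold change was 0.64 (standard error 0.10, adjusted p = 0.0062). Fabp5 rose from 21.7 ± 1.62 to 27.3 ± 3.76 CPM (log2 fold change 0.32, standard error 0.07, adjusted p = 0.024), a call that was lost in 8 of 15 alternatives. Without the aged 14D cold library Plin2 (0.64), Fabp4 (0.57) and Slc27a1 (0.59) passed and Fabp5 did not. Endothelial markers also differed between the ages here. Their sum stood at 0.113%, 0.129% and 0.147% of its endothelial level in young and 0.265%, 0.152% and 0.338% in aged Icam1+ preadipocytes, without overlap. Of the 10 markers 3 passed as higher, and their median log2 fold change was 1.05. Fabp4 stood at 2.13% to 5.23% of its endothelial level, above the markers in all 6 libraries, and the part of endothelial RNA in its age difference was not tested.

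Cd36 and Lpl did not pass the age test in Icam1+ preadipocytes. Cd36 stood at 79.1, 153 and 187 CPM in young and 27.0, 124 and 154 CPM in aged libraries, lower in the aged library at all 3 temperatures and by most at TN (-1.53 log2 units against -0.30 and -0.28). The fitted log2 fold change was -0.68 (standard error 0.22, adjusted p = 0.081), and without the aged 14D cold library it was -0.88 and passed (adjusted p = 0.040). Lpl stood at 3892, 3356 and 3584 CPM in young and 3578, 2496 and 2966 CPM in aged libraries (log2 fold change -0.27, standard error 0.10, adjusted p = 0.11). In clusters 0 and 3 taken alone Plin2, Fabp4 and Slc27a1 passed as higher in aged libraries in both, with log2 fold changes of 0.72 and 0.61 for Plin2.

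In Cd142+ fibroblasts Lpl was lower and Fabp4, Fabp5 and Plin2 were higher in aged libraries, 4 of the 10 genes against 12.7% of all genes tested. Lpl stood at 1798, 1678 and 1593 CPM in young and 1230, 728 and 762 CPM in aged libraries, with log2 fold change -0.94 (standard error 0.12, adjusted p = 0.00018). Plin2 went from 45.7 ± 4.17 to 69.8 ± 6.51 CPM (log2 fold change 0.61, standard error 0.09, adjusted p = 0.00053). In both genes the ages did not overlap. Lpl in this class stood above the Schwann-like level in every library. Fabp4 stood at 83.4, 226 and 193 CPM in young and 338, 383 and 655 CPM in aged libraries (log2 fold change 1.50, standard error 0.18, adjusted p = 0.00012). Fabp5 went from 8.55 ± 1.87 to 15.7 ± 7.53 CPM (log2 fold change 0.80, standard error 0.22, adjusted p = 0.029), with 24.4 CPM in the aged 14D cold library and 11.1 to 11.7 CPM in the other aged libraries. Without that library the log2 fold changes were -0.88 for Lpl, 0.58 for Plin2 and 1.35 for Fabp4, all past the threshold, and 0.47 for Fabp5, which did not pass (adjusted p = 0.24).

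Endothelial markers moved with age in Cd142+ fibroblasts too. They stood at 0.114% to 0.158% of their endothelial level in young and 0.247% to 0.712% in aged libraries, and 6 of the 7 tested passed as higher. Fabp4 stood at 0.231% to 0.517% in young and 0.658% to 1.10% in aged libraries. Without cells that held a UMI of the markers the log2 fold change of Fabp4 was 0.92 and still passed, that of Fabp5 was 0.43 and did not, and that of Cd36 turned from 0.47 (adjusted p = 0.068) to -0.48 (adjusted p = 0.17). The part of endothelial RNA in these values was not tested.

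**Figure D3:**
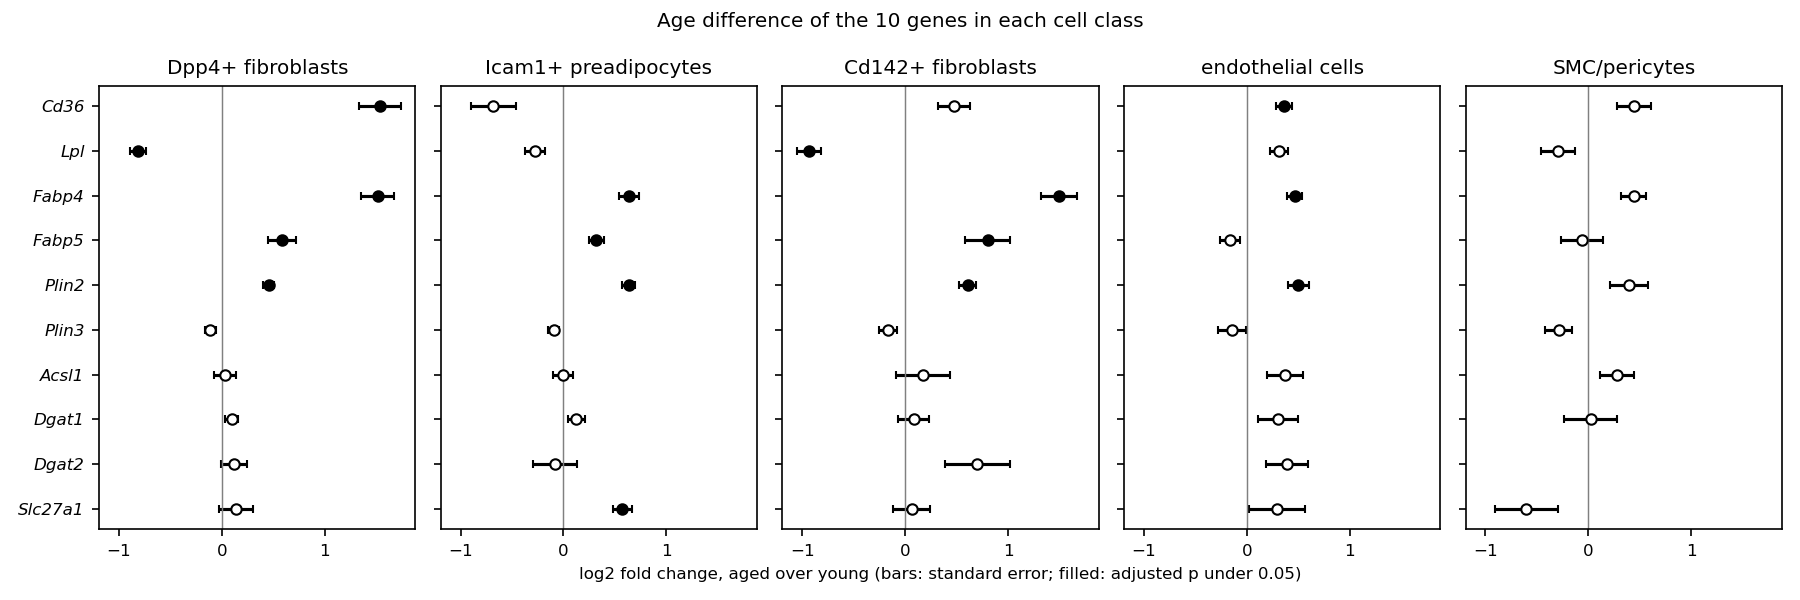
Log2 fold change of each gene, aged over young, in 5 cell classes, with bars for the standard error and filled points for an adjusted p under 0.05. Lpl is lower in aged Dpp4+ and Cd142+ fibroblasts, and Plin2 is higher in aged libraries in each class but SMC/pericytes, where its value of 0.39 did not pass.

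In endothelial cells Fabp4, Cd36 and Plin2 passed as higher in aged libraries, 3 of the 10 genes against 3.48% of all genes tested. Fabp4 stood at 35066, 43904 and 37970 CPM in young and 41912, 60603 and 60502 CPM in aged libraries (log2 fold change 0.46, standard error 0.07, adjusted p = 0.0080). Cd36 stood at 2732, 3560 and 3210 CPM in young and 3038, 4637 and 4698 CPM in aged libraries (log2 fold change 0.36, standard error 0.08, adjusted p = 0.034). The ages overlapped, since the aged TN library lay within the young range, though at each temperature the aged value was the higher one. Plin2 went from 338 ± 70.0 to 484 ± 134 CPM (log2 fold change 0.50, standard error 0.10, adjusted p = 0.025). None of the 3 passed without the young 14D cold, aged 3D cold or aged 14D cold library, and without the young 3D cold library 1 of them, Fabp4, did.

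The makeup of the endothelial class moved with age. Cluster 6 was 77.5%, 75.6% and 74.5% of it in young and 79.6%, 86.2% and 91.4% in aged libraries at TN, 3D cold and 14D cold. In cluster 6 alone the log2 fold change was 0.23 for Fabp4 (adjusted p = 0.037), 0.14 for Cd36 (adjusted p = 0.40) and 0.26 for Plin2 (adjusted p = 0.23). Fabp5, which did not pass in the class (log2 fold change -0.16, adjusted p = 0.44), was lower in aged libraries of cluster 6 at 2156, 2697 and 3972 CPM in young against 1369, 2163 and 2815 CPM in aged libraries (log2 fold change -0.49, adjusted p = 0.0068). In cluster 8 it stood at 339, 307 and 302 CPM in young and 458, 373 and 501 CPM in aged libraries, which did not overlap (log2 fold change 0.47, adjusted p = 0.15). The difference between the clusters was not tested. Adipocyte RNA moved as well: 9 adipocyte genes, led by Car3, summed to 258 to 685 CPM in young and 535 to 1451 in aged endothelial cells, and 2 of the 6 tested (Cidec and Retn) passed as higher. Without cells with a UMI of Adipoq, Plin1, Cidec or Car3, the log2 fold change of Fabp4 was 0.54 and that of Cd36 0.44, both past the threshold, and that of Plin2 was 0.54 with an adjusted p of 0.061.

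In SMC/pericytes none of the 9 genes tested passed the age test by edgeR, where 0.207% of all genes did. At an unadjusted p under 0.05 there were 2, and DESeq2 called 0 of 7. Their log2 fold changes ran from -0.60 for Slc27a1 to 0.44 for Cd36, and the smallest adjusted p was 0.24, for Fabp4. Dgat2 had 5 to 24 UMIs per library and was not tested.

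Over the 5 classes, Plin3, Acsl1, Dgat1 and Dgat2 passed the age test in none. Plin3 had log2 fold changes of -0.29 to -0.10, Acsl1 of 0.00 to 0.37, Dgat1 of 0.02 to 0.30 and Dgat2, in 4 classes, of -0.08 to 0.70. The largest of these, for Dgat2 in Cd142+ fibroblasts (2.31 ± 0.225 CPM in young and 3.78 ± 0.419 CPM in aged libraries), had a standard error of 0.32 and an adjusted p of 0.18. The signs of the values near 0 changed with the processing. A p that misses the threshold does not show that these genes are the same at both ages.

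Whether the age difference itself differed between classes was tested for 4 pairs. Lpl passed in 2 pairs. Its age log2 fold change was higher by 0.56 (standard error 0.09, adjusted p = 0.015) in Icam1+ preadipocytes than in Dpp4+ fibroblasts, where 2.01% of all genes passed, and lower by 0.67 in Cd142+ fibroblasts than in Icam1+ preadipocytes (difference -0.67, standard error 0.09, adjusted p = 0.0017, 2.52% of all genes). Cd36 passed between Cd142+ and Dpp4+ fibroblasts (difference -1.04, standard error 0.18, adjusted p = 0.0039, 2.22% of all genes). The difference for Cd36 between Icam1+ preadipocytes and Dpp4+ fibroblasts was larger, at -2.15, but with a standard error of 0.54 it did not pass (adjusted p = 0.089). Between endothelial cells and Icam1+ preadipocytes none of the 10 passed by edgeR, against 1.56% of all genes, with 3 at an unadjusted p under 0.05 and 0 by DESeq2. The difference of Lpl between Icam1+ and Dpp4+ cells did not pass without any 1 of 5 libraries (all but aged TN), with values of 0.54 to 0.58 and adjusted p-values of up to 0.074. The difference of Cd36 between Cd142+ and Dpp4+ cells was -0.45 (adjusted p = 0.41) where cells were gated one by one by markers.

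Cold exposure was accompanied by higher Cd36 and Fabp4 in Icam1+ preadipocytes, 2 of the 10 genes against 4.40% of all genes tested. Cd36 rose from 79.1 CPM at TN to 153 CPM after 3 days and 187 CPM after 14 days in young libraries, and from 27.0 to 124 and 154 CPM in aged ones. The log2 fold changes over TN were 1.51 and 1.81 (adjusted p = 0.024 for both times together). Fabp4 rose from 765 to 1920 and 1641 CPM in young and from 1023 to 3102 and 2864 CPM in aged libraries, with log2 fold changes of 1.46 and 1.29 (adjusted p = 0.0041). At both ages each cold library was above its TN library. The 9 adipocyte genes summed in this class to 59.9, 65.2 and 88.1 CPM in young and 52.4, 83.8 and 106 in aged libraries at TN, 3D cold and 14D cold. Of the 6 adipocyte genes tested, 1 passed the temperature test by edgeR. The part of adipocyte RNA in the rise was not tested. The endothelial markers, with the shares of their endothelial level given above, were higher at 14D cold than at TN at both ages, and at 3D cold higher than TN in young and lower in aged libraries. None of the 10 markers passed the temperature test by edgeR, and their part in the rise was not tested.

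Cd36 and Fabp4 also passed the temperature test in SMC/pericytes, 2 of 9 genes against 0.176% of all genes. Cd36 rose from 262 CPM at TN to 1067 and 865 CPM in young and from 526 to 1290 and 910 CPM in aged libraries (log2 fold changes 1.63 and 1.24, adjusted p = 0.029). Fabp4 rose from 6574 to 18679 and 14096 CPM in young and from 10248 to 24600 and 17182 CPM in aged libraries (log2 fold changes 1.38 and 0.92, adjusted p = 0.022). The endothelial markers moved with them, from 4.10% of their endothelial level at TN to 14.9% and 11.3% in young and from 7.92% to 13.4% and 12.2% in aged libraries, and 0 of the 10 passed the temperature test by edgeR. The makeup of the class moved too. Cluster 7, led by Rgs5, was 44.8%, 75.3% and 66.0% of it in young libraries at TN, 3D cold and 14D cold. In aged libraries it was 61.3%, 77.3% and 67.3%. The clusters of this class were not tested alone. The parts of endothelial RNA and of makeup in the rise were not tested. Of 4 adipocyte genes tested in SMC/pericytes, 1 passed the temperature test by edgeR, and the part of adipocyte RNA was not tested. The calls of Cd36 and Fabp4 were both lost without the young or the aged 3D cold library. That of Fabp4 was also lost without either 14D cold library.

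In endothelial cells Fabp5 was the 1 gene of the 10 to pass, against 0.516% of all genes. It rose from 1499 CPM at TN to 1764 and 2547 CPM in young and from 1064 to 1789 and 2517 CPM in aged libraries, with log2 fold changes of 0.49 and 1.00 (adjusted p = 0.017). In the class as a whole the cold values of the ages were nearly equal, and the aged TN value was the lowest of the 6. The call was lost without the young or the aged 14D cold library. Endothelial cluster 6 alone held 2697 and 3972 CPM of Fabp5 in the young cold libraries and 2163 and 2815 CPM in the aged ones. It was 75.6% and 74.5% of the class in the young cold libraries and 86.2% and 91.4% in the aged ones. The part of makeup in the class values of Fabp5 was not tested. In Cd142+ fibroblasts Fabp4 (log2 fold changes 0.80 and 1.05, adjusted p = 0.041) and Cd36 (0.09 and 0.88, adjusted p = 0.038) passed, 2 of the 10 genes against 2.36% of all genes. Cd36 there rested on the aged 14D cold library, at 38.8 CPM against 13.4 to 20.9 CPM in the other 5, and did not pass without it. The endothelial markers in this class stood at 0.114%, 0.158% and 0.142% of their endothelial level in young and 0.564%, 0.247% and 0.712% in aged libraries, highest in that same library, and 1 of the 7 tested passed the temperature test. Without cells that held a UMI of the markers Fabp4 passed (log2 fold changes 1.24 and 1.46, adjusted p = 0.0032) and Cd36 did not (0.35 and 1.10, adjusted p = 0.076). DESeq2 called 0 of the 5 genes to which it gave an adjusted p in Cd142+ fibroblasts, and the part of endothelial RNA was not tested. In Dpp4+ fibroblasts none of the 10 passed by edgeR, against 5.55% of all genes, with 6 at an unadjusted p under 0.05 and 1 called by DESeq2. The shares of all genes at an unadjusted p or by DESeq2 are not given, and nothing is read from those counts.

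**Figure D4:**
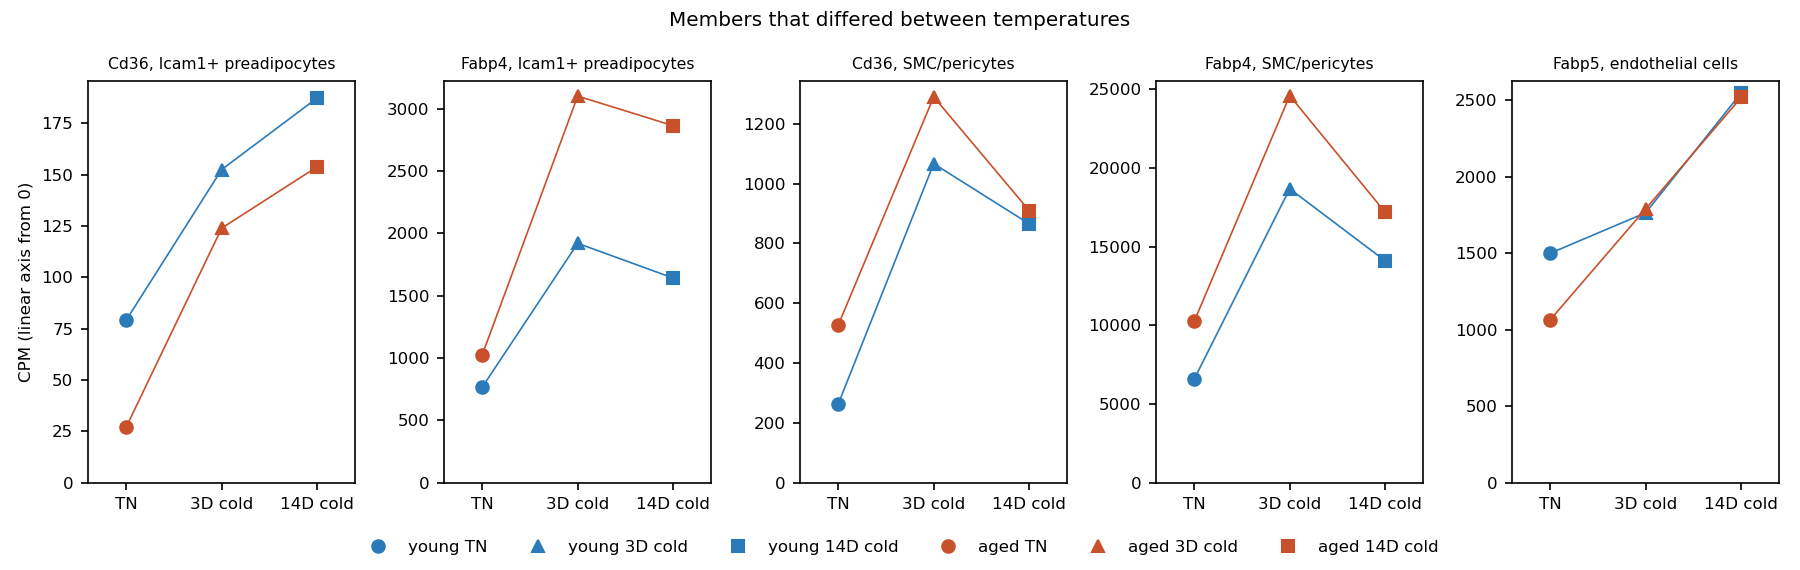
CPM (linear axis from 0) of 5 gene and class pairs at TN, 3D cold and 14D cold, with 1 point per library and lines joining libraries of an age. Cd36 and Fabp4 are above TN after cold at both ages in Icam1+ preadipocytes and SMC/pericytes, and Fabp5 in endothelial cells is highest at 14D cold.

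To compare shares of cells, each cell was thinned to 2000 UMIs and shallower cells were left out. In the 3 fibroblast classes this left out no cell in the young libraries or the aged 3D cold library, 14 to 20 cells per class in the aged TN library and 103 to 429 in the aged 14D cold library. Lpl was detected in 47.3% to 53.9% of young and 28.1% to 37.9% of aged Dpp4+ fibroblasts, and in 83.0% to 83.5% of young and 57.3% to 72.4% of aged Cd142+ fibroblasts. In Icam1+ preadipocytes it was found in 92.6% to 98.1% of cells in all libraries, and the ages overlapped. Plin2 was detected in 40.0% ± 2.50 of young and 52.2% ± 1.26 of aged Icam1+ preadipocytes. Cd36 was detected in 12.04%, 20.8% and 25.3% of young and 4.61%, 15.8% and 20.98% of aged Icam1+ preadipocytes at TN, 3D cold and 14D cold, and in 0.769% to 1.22% of young and 1.73% to 4.91% of aged Dpp4+ fibroblasts. The ages did not overlap in 10 of 50 gene and class pairs of the set (11 to 21 with 1 library left out), against 17.2% of the pairs of all genes tested, and nothing is read from a share so near that background. The smallest p that an exact two-sided permutation test over 3 against 3 libraries allows is 0.1. Without thinning, Lpl was detected in 81.6% to 89.3% of young and 56.5% to 71.2% of aged Dpp4+ fibroblasts, and Plin2 in 74.9% to 79.2% of young and 76.6% to 82.3% of aged Icam1+ preadipocytes, so that the ages overlapped for Plin2. At 2000 UMIs Schwann-like cells showed Lpl in 43.7% to 46.3% of young and 32.7% to 38.0% of aged cells and Cd36 in 0% to 2.97% of 44 to 101 cells. The Dpp4+ share of Lpl lay above the Schwann-like share of the same library in each young library (53.9% against 46.3% at TN, 47.3% against 44.0% at 3D cold and 47.6% against 43.7% at 14D cold). In aged libraries it lay on both sides, at 37.2% against 32.7%, 28.1% against 34.1% and 37.9% against 38.0%. The Cd142+ shares of Lpl lay above the Schwann-like share in every library. The Dpp4+ shares of Cd36 lay within the Schwann-like range in 5 of 6 libraries and above it, at 4.91%, in the aged 14D cold library.

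Another 60 genes of fatty acid uptake, triglyceride synthesis, lipid droplets and lipolysis were set beside the 10. In Dpp4+ fibroblasts 6 rose with age and 3 fell, out of 40 tested, where 17.2% of all genes passed. Gpihbp1, which anchors lipoprotein lipase to capillaries, had the largest log2 fold change (1.67), and stood at 1.62 to 10.9 CPM here and 2452 to 3937 CPM in endothelial cells. Cidec (1.34) and Plin4 (1.16), lipid droplet proteins of adipocytes, followed, and Slc27a4 (-0.32), Lpin3 (-0.44) and G0s2 fell. Gpat3, which starts triglyceride synthesis, went from 3.81 to 4.21 CPM in young to 7.08 to 8.39 CPM in aged Dpp4+ fibroblasts (log2 fold change 0.94, adjusted p = 0.00041). G0s2, an inhibitor of adipose triglyceride lipase, was lower in aged Dpp4+ fibroblasts (log2 fold change -0.59, adjusted p = 0.0021) and in aged Cd142+ fibroblasts (-0.75, adjusted p = 0.0049). In Icam1+ preadipocytes 5 of 43 rose, where 13.4% of all genes passed in either direction, among them Gpat3 (log2 fold change 0.64, adjusted p = 0.030). In Cd142+ fibroblasts 5 of 38 rose and 3 fell, against 12.7% of all genes, Gpat3 (1.15) again among those that rose, and Cav1, the caveolar coat protein, among those that fell (-0.57). Cav1 moved the other way in Dpp4+ fibroblasts (0.99, adjusted p = 6.4e-05), where its level was 13.7 to 35.1 CPM against 1049 to 1427 CPM in endothelial cells. In endothelial cells 3 of 40 rose, Gpihbp1, Cidec and Mgll, where 3.48% of all genes passed. In SMC/pericytes 0 of 37 passed by edgeR, against 0.207% of all genes, with 4 at an unadjusted p under 0.05 and 0 of 19 by DESeq2. The medians of these lists lay between -0.05 and -0.01 log2 units, and those of all genes tested between -0.01 and 0.01.

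Across the 42 sums of 6 libraries and 7 classes, with Schwann-like and immune cells added to the 5 classes, the genes whose levels followed the 10 most closely were found by Pearson correlation of log2(CPM + 1) over 6185 genes. Cd36 was most like Fabp4 (0.94), followed by Sh2b3 and Myh9. Fabp4 was most like Cd300lg (0.96), an endothelial surface protein, and Pparg (0.96), the adipogenic nuclear receptor. Lpl was most like Col4a1 (0.88), Nrep and Cxcl14, which are among the leading genes of the Icam1+ clusters, and Plin2 was most like Cldn15 (0.87), Gdf15 and Spaar. Fabp5 was most like Gnai2 (0.95), Arhgap31 and Ggta1, Plin3 most like Fzd2 (0.91), Acsl1 most like Pdcd10 (0.92) and Slc27a1 most like Tsc22d3 (0.80). The sums share libraries, depth and RNA carried between classes, so these correlations describe the sums and carry no test.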

How the data were processed

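The authors deposited UMI counts per gene and barcode for each of 6 libraries of 10x single-cell RNA sequencing, made with Cell Ranger 3.1.0 against mm10, which are whole-number counts with no normalization. The submitters' processing notes also name R 4.1.1 and Seurat. The 10 genes and all lists of related and marker genes were chosen with earlier results of these data known.

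Barcodes with at least 200 genes and within 3 median absolute deviations of their library were kept (57326 of 68103). Counts were scaled to 10000 per cell, log-transformed, reduced to 6000 variable genes and 15 principal components without the 10 genes, their related genes or markers, and clustered by Leiden at resolution 0.5 (Python 3.11.15, numpy 2.4.6, scikit-learn 1.9.0, leidenalg 0.10.2). Clusters were named from markers found in 10% of cells at 1.5-fold, at least 3 of them and 50% of the list. A cluster with more than 50% of cells of high doublet score was left without a name. Cluster 9 (519 cells, 84.0% of high doublet score), with 10 of 10 endothelial markers, was thus not in the endothelial class. Other cells of high doublet score were kept, and left out in an alternative. Counts were summed per library and class, and tested by edgeR's quasi-likelihood test (edgeR 4.0.16, R 4.3.3) with TMM scaling and terms for age and temperature (2 residual degrees of freedom) and Benjamini-Hochberg adjustment over all genes at 0.05. The 3 libraries of an age differ in temperature and serve as its replicates, and no group has a replicate of its own. The test shares information on spread across genes, so a p-value does not measure the spread of 1 gene alone. Differences of age effects between classes used 1 fit of both classes with 4 residual degrees of freedom. DESeq2 1.42.0 was an alternative. Counts at an unadjusted p or by DESeq2 are given without the share of all genes, and nothing is read from them. The edgeR test was checked on simulated data. The 10 genes are all named, and related genes by the largest changes past the threshold, at most 3 up and 3 down per class, with Gpat3 and Cav1 in Dpp4+ fibroblasts named besides after their values were seen. Correlations used log2(CPM + 1) of genes with a mean of at least 20 CPM over the sums, and those of Dgat1 and Dgat2 are not reported here. Counting depth was 1031856 to 36646236 UMIs per class and library.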

Additional observations from a re-analysis of the deposited data

Results flagged for a closer look

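The age difference of Lpl differed between classes in 2 of the 4 pairs tested, and that of Cd36 in 1. For Lpl the difference between Icam1+ preadipocytes and Dpp4+ fibroblasts was 0.56 log2 units, from -0.27 in the first and -0.82 in the second, and it did not pass with thinned cells or without the young TN, young 3D cold, young 14D cold, aged 3D cold or aged 14D cold library. Between Cd142+ fibroblasts and Icam1+ preadipocytes it was -0.67, and -0.26 (adjusted p = 0.35 by edgeR) where cells were gated one by one. For Cd36 the difference between Cd142+ and Dpp4+ fibroblasts was -1.04, from 0.47 in the first and 1.54 in the second, and it did not pass with thinned cells (-0.54, adjusted p = 0.72), with gated cells (-0.45, adjusted p = 0.41) or without cells of high doublet score (-1.04, adjusted p = 0.052). Endothelial marker genes also rose with age in both classes of that last pair, and their part in the difference was not tested.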

How the results depend on the processing

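With 15 alternatives for each call, the age calls of Cd36, Lpl, Fabp4 and Plin2 in Dpp4+ fibroblasts, Plin2 in Icam1+ preadipocytes and Lpl and Fabp4 in Cd142+ fibroblasts kept direction and threshold in every one, and those of Fabp5 and of endothelial cells were the least stable. The 15 do not include clusters taken alone. In Dpp4+ fibroblasts Lpl did not pass in cluster 2 alone (-0.46, adjusted p = 0.058 by edgeR). Plin2 did not pass in cluster 1 alone (0.22, adjusted p = 0.055 by edgeR). The causes of the changes below were not tested, apart from fewer samples or genes where a setting is built that way. No paired analysis was possible because each age and temperature has 1 library and the labels number every library alike. Pairs of classes have no fit without the temperature term, and the adipocyte gene setting was not run for SMC/pericytes. Depth limits genes near 2 to 5 CPM, such as Dgat2.

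Counts of the 10 genes past the threshold changed as follows. The shares of all genes given above belong to the main setting, and those of the other settings are not given. No count below, also with 1 library left out, is read as a result about the genes. With DESeq2 the temperature counts were 1 in Dpp4+, 0 in Cd142+ and 2 in endothelial cells, and the related gene counts 5 in Dpp4+ and 4 in Cd142+. Without a low count filter, temperature gave 5 in Dpp4+, 4 in Icam1+, 4 in Cd142+, 9 in endothelial cells and 4 in SMC/pericytes, age gave 1 in SMC/pericytes, related genes gave 9 in Icam1+, 9 in endothelial cells and 1 in SMC/pericytes, and the pairs gave 2 (Icam1+ and Dpp4+), 3 (Cd142+ and Icam1+) and 3 (endothelial and Icam1+). With thinned cells in equal number, temperature gave 3 in Dpp4+, 4 in endothelial cells and 1 in SMC/pericytes, age gave 1 in endothelial cells, related genes gave 4 in Dpp4+, 3 in Cd142+ and 0 in endothelial cells, and the pairs gave 0 (Icam1+ and Dpp4+), 0 (Cd142+ and Dpp4+) and 3 (Cd142+ and Icam1+). Without cells of high doublet score, temperature gave 4 in Dpp4+ and 3 in endothelial cells, related genes gave 8 in Icam1+ and the Cd142+ and Dpp4+ pair gave 0. Without cells with adipocyte gene UMIs, temperature gave 3 in Dpp4+ and the Cd142+ and Icam1+ pair 2. Without cells with endothelial gene UMIs, added after seeing the data, temperature gave 2 in Dpp4+ and 1 in Cd142+, and the Icam1+ and Dpp4+ pair 2. With cells gated one by one, temperature gave 4 in Dpp4+, 1 in Cd142+, 0 in endothelial cells and 0 in SMC/pericytes, age gave 0 and related genes 0 in endothelial cells, and the Cd142+ and Icam1+ pair 0. Without the other term, age gave 1 in Icam1+ and 0 in endothelial cells, temperature gave 0 in Icam1+, Cd142+, endothelial cells and SMC/pericytes, and related genes gave 4 in Dpp4+, 1 in Icam1+, 3 in Cd142+ and 0 in endothelial cells. At resolution 1.0, related genes gave 9 in Icam1+ and 1 in endothelial cells, and temperature 0 in SMC/pericytes.

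Leaving out 1 library at a time, temperature counts ran from 0 to 5 in Dpp4+, 1 to 4 in Cd142+, 0 to 3 in endothelial cells and 0 to 3 in SMC/pericytes, age counts from 0 to 5 in endothelial cells, related gene counts from 4 to 10 in Dpp4+, 3 to 6 in Icam1+, 5 to 11 in Cd142+ and 0 to 6 in endothelial cells, and the pairs from 0 to 2 (Icam1+ and Dpp4+), 1 to 3 (Cd142+ and Icam1+) and 0 to 1 (endothelial and Icam1+). The 10 gene and class pairs with separate detection shares became 11 to 21, and were 13 without thinning and 14 at 4000 UMIs.

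Signs of small log2 fold changes turned. For age in Dpp4+ fibroblasts, Acsl1 was -0.040 thinned, -0.027 without doublets, -0.042 without adipocyte gene cells, -0.019 without endothelial gene cells, -0.037 gated, -0.16 at resolution 1.0, -0.17 in cluster 1 and -0.048 to 0.080 leaving out libraries, Dgat1 was -0.067 thinned and -0.13 in cluster 2, Dgat2 was -0.29 thinned, and Slc27a1 ran from -0.041 to 0.23. In Icam1+ preadipocytes, Acsl1 was 0.0033 with DESeq2, 0.0034 with RLE factors, 0.0088 without the temperature term, 0.30 thinned, 0.0080 gated, 0.015 at resolution 1.0, 0.085 in cluster 0 and -0.023 to 0.033 leaving out libraries, Plin3 was 0.014 thinned, and Dgat2 was 0.13 thinned, 0.0020 gated and -0.38 to 0.13 leaving out libraries. In Cd142+ fibroblasts, Cd36 was -0.48 without endothelial gene cells, Acsl1 ran from -0.12 to 0.58, Dgat1 was -0.71 thinned and -0.029 to 0.23 leaving out libraries, Slc27a1 was -0.13 thinned, and Cd36 at 3D cold ran from -0.20 to 0.42. In endothelial cells, Fabp5 was 0.47 in cluster 8 and -0.26 to 0.0034 leaving out libraries, Plin3 was 0.27 thinned and 0.028 gated, Acsl1 was -0.017 without adipocyte gene cells and -0.32 in cluster 8, and Lpl was -0.62 in cluster 8. In SMC/pericytes, Fabp5 was 0.081 gated and -0.37 to 0.23 leaving out libraries, and Dgat1 was -0.023 gated, -0.054 at resolution 1.0 and -0.26 to 0.29. The detection difference, aged minus young, turned without thinning to -0.328 points for Fabp5 in Icam1+ preadipocytes and -1.13 for Dgat1 in SMC/pericytes. Among values not given singly, 63 of 1198 cold and 53 of 501 pair values turned sign, and 127 and 8 newly passed.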
